A study of Mus musculus with 28 samples.

Results

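The genes described here make cholesterol and fatty acids. They are the 32 genes named for this set: the mevalonate branch, the squalene and sterol enzymes, the regulators that sense sterol, and the enzymes that build and desaturate fatty acids. A gene was taken where a probe set carried its symbol and no other, which held for 31 of the 32 genes through 33 of 35557 probe sets. Acat2 had no such probe set and was not analysed here. After 1 probe set was kept per gene, the 31 genes stood among 19938 genes tested.

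RNA of whole mouse hippocampus was measured on 28 Affymetrix Mouse Gene 1.0 ST arrays, all of C57BL/6J mice. The young mice, 10 weeks old, were wild type, fosB-null (labelled G/G) or fosB d/d (labelled as lacking FosB protein). Each genotype received saline or kainate (KA), an agonist of glutamate receptors that causes seizures, with 3 arrays per group. The aged mice, 64.7 to 71 weeks old, comprised 3 wild type mice, 3 epileptic fosB-null mice, 2 fosB-null mice free of epilepsy and 2 fosB d/d mice, with 1 array each. FosB is a transcription factor of the AP-1 family that neuronal activity induces. Each array is labelled a biological replicate, and how long after KA the mice were sampled is not stated in the labels.

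Cholesterol is built from acetyl-CoA through mevalonate, farnesyl diphosphate, squalene and lanosterol. The brain makes its own cholesterol, in adults largely in glial cells, because lipoproteins of the blood do not cross its barrier. When sterol in the endoplasmic reticulum is low, Scap carries the SREBP factors to the Golgi, where they are cut and released to activate the genes of both pathways; Insig proteins hold them back when sterol is plentiful.

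The upstream sequences of 4 members are printed here because Idi1 and Lss rose with KA in both mutants, Hmgcs1 passed there with replicate number as a block, and Fads2 fell in wild type. Each is the 200 bases before the RefSeq start site on build GRCm38.p6, read 5′ to 3′ on the strand of the gene. Capitals mark matches to CCAAT, the letters that NF-Y recognises, written ATTGG where the match lies on the other strand, and to TCACNCCAC, a form of the sterol regulatory element. Hmgcs1 lies on the plus strand at chr13:119690151-119690350, Idi1 on the plus strand at chr13:8885406-8885605, Lss on the plus strand at chr10:76531405-76531604 and Fads2 on the minus strand at chr19:10101504-10101703.
Hmgcs1: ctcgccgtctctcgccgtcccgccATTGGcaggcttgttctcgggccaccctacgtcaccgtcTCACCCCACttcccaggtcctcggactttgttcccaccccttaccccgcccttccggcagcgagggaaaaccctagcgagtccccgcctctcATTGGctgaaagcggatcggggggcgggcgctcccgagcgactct
Idi1: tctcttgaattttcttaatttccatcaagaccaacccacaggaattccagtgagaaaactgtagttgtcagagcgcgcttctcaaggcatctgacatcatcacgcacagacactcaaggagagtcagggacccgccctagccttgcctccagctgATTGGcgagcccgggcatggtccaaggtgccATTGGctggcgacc
Lss: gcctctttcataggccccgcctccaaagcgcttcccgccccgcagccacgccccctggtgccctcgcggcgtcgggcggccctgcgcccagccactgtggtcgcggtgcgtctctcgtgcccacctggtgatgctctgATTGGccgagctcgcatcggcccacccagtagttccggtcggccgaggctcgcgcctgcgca
Fads2: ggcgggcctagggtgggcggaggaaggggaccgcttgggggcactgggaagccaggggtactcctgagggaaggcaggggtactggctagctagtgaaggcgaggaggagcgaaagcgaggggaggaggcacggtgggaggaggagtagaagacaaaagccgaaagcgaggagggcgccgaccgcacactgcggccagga
The Hmgcs1 stretch holds 2 CCAAT matches and 1 sterol element, that of Idi1 2 CCAAT matches, that of Lss 1, and that of Fads2 none of either. RefSeq windows of 300 bases, from 250 before to 50 after the start, were at hand for 23 of the 31 measured members. CCAAT on either strand stood in at least 1 window of 20 of the 23 members, or 87%, against 41.1% of 27025 genes. TCACNCCAC stood in the windows of 1 of the 23, Hmgcs1, or 4.35%, against 1.44% of all genes. These counts describe letters in a short window and say nothing of binding.

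Several facts of the series touch every value. The deposited array medians ran from 7.95 to 8.43 log2 units, so all arrays were quantile-normalized. The replicate 1 arrays of the young groups had medians of 8.07 to 8.11, replicates 2 and 3 with saline, or with KA in wild type, 8.33 to 8.43, and replicates 2 and 3 of the KA-treated mutants 8.05 to 8.11. These are called array sets 1, 2 and 3; the labels name no batch, and the split was known from earlier results. Set 3 holds no saline array and no wild type array, so for the mutants KA can be compared within a set only in the replicate 1 arrays. Replicates correlated at 0.986 to 0.998. The Fosb probe set ran from 8.68 to 8.80 in wild type saline, 8.39 to 8.47 in fosB-null saline and 8.93 to 9.38 in fosB d/d saline, and which part of the transcript it covers is not known. In aged mice it was 9.44 to 9.86 in wild type and 8.32 to 8.94 in 4 of the 5 fosB-null arrays, while the array labelled fosB-null with epilepsy, replicate 2, was at 9.68, within the wild type range and against its label. The fosB d/d saline arrays have a source name that speaks of kainate, while their titles and treatment labels say saline. All mice are labelled female, yet Eif2s3y, a Y-linked gene, was at 9.78 to 10.4 in the young arrays and 4.12 to 4.51 in the aged ones; age and this difference cannot be told apart, and aged and young mice were not compared. Among the young arrays, wild type saline replicate 1 stood apart in Xist, an RNA of the inactive X chromosome, at 9.58 against 5.91 to 7.39 in the other 17. All 10 neuron markers, all 9 astrocyte markers and all 11 measured oligodendrocyte markers lay above the median of all genes.

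The members are well-expressed genes here. Their mean log2 signal over the 28 arrays ran from 8.38 to 13.3 with a median of 10.4, against 8.59 for all genes, and no filter on low values was set. Signals of different probe sets depend on their probes and are not compared between genes.

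After KA, mevalonate or sterol enzymes were higher in each of the 3 genotypes, and the genes that passed the test were partly different ones. In wild type, 3 of the 31 members rose, Acat3, Hsd17b7 and Acly, and 1 fell, Fads2. In fosB-null, 5 rose, Acat3, Idi1, Sqle, Lss and Msmo1, and 0 fell. The fosB d/d mice had 3 that rose, Idi1, Lss and Hsd17b7, and 0 fell. A gene passed where limma's adjusted p, over all 19938 genes, was under 0.05. Among all genes the share that passed was 6.9% in wild type (3.48% higher and 3.42% lower), 0.762% in fosB-null (0.471% higher and 0.291% lower) and 0.461% in fosB d/d (0.246% higher and 0.216% lower).

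The median of the set also lay above that of all genes. The median log2 difference of the 31 members was 0.09 in wild type, 0.21 for fosB-null and 0.19 for fosB d/d, against 0.01, -0.01 and -0.01 for all genes. Of the 31, 22, 22 and 29 were above 0, where 51.5%, 47.1% and 46.9% of all genes were. By limma's unadjusted p under 0.05, 8, 19 and 16 members stood apart (25.8%, 61.3% and 51.6%), where 20.3%, 12.5% and 12.2% of all genes did, so the wild type share is near that of all genes. All 3 KA arrays lay above all 3 saline arrays for 7 members in wild type (10.8% of all genes did so), 17 for fosB-null (7.71%) and 15 for fosB d/d (7.33%). No label pairs the arrays, but in the mutants arrays of the same number were correlated in their deviations from the group mean. With replicate number as a block 10 members passed for fosB-null and 10 for fosB d/d, where 2.39% and 2.09% of all genes passed. The same 9, Hmgcs1, Mvd, Idi1, Fdps, Sqle, Lss, Msmo1, Nsdhl and Hsd17b7, passed in both. In wild type 11 passed with that block, 8 higher and 3 lower, where 14.4% of all genes did. Among the higher ones there were Fdps, Sqle, Msmo1, Nsdhl and Hsd17b7. This block does not take away the difference between sets 2 and 3, which goes with KA in the mutants. Without quantile normalization, on the deposited scale, 2 members passed in wild type and 0 in either mutant, where the median of all genes stood at -0.17 after KA. With array set as a block, 12 passed in wild type, 8 higher and 4 lower, and 0 in either mutant, where 17.6%, 0.0602% and 0.0802% of all genes passed. In wild type replicates 2 and 3 alone, all of set 2, 7 passed where 17.7% of all genes did: Acat3, Fdft1 and Scap were higher, Pmvk, Fads1, Fads2 and Scd1 were lower, and Hsd17b7 and Acly did not pass.

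Single arrays changed these counts. In wild type 2 members passed without saline replicate 3, KA replicate 1 or KA replicate 3, where 4.71%, 5.49% and 5.08% of all genes did. Acat3 and Fads2 passed whichever array was left out. Without saline replicate 1, the array with more Xist, 3 passed, Acat3 higher and Fads1 and Fads2 lower, where 6.82% of all genes passed. In fosB-null 1 passed without saline replicate 2 or 3 or KA replicate 2 or 3, and 3 without KA replicate 1. The shares of all genes there were 0.211%, 0.256%, 0.11% and 0.176%, and 1.95%. With fosB d/d, 0 passed without saline replicate 2 or 3 or KA replicate 2, and 1 without saline replicate 1. For these fits the shares of all genes were 0.0201%, 0.0602% and 0.0451%, and 0.15%.

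**Figure D1:**
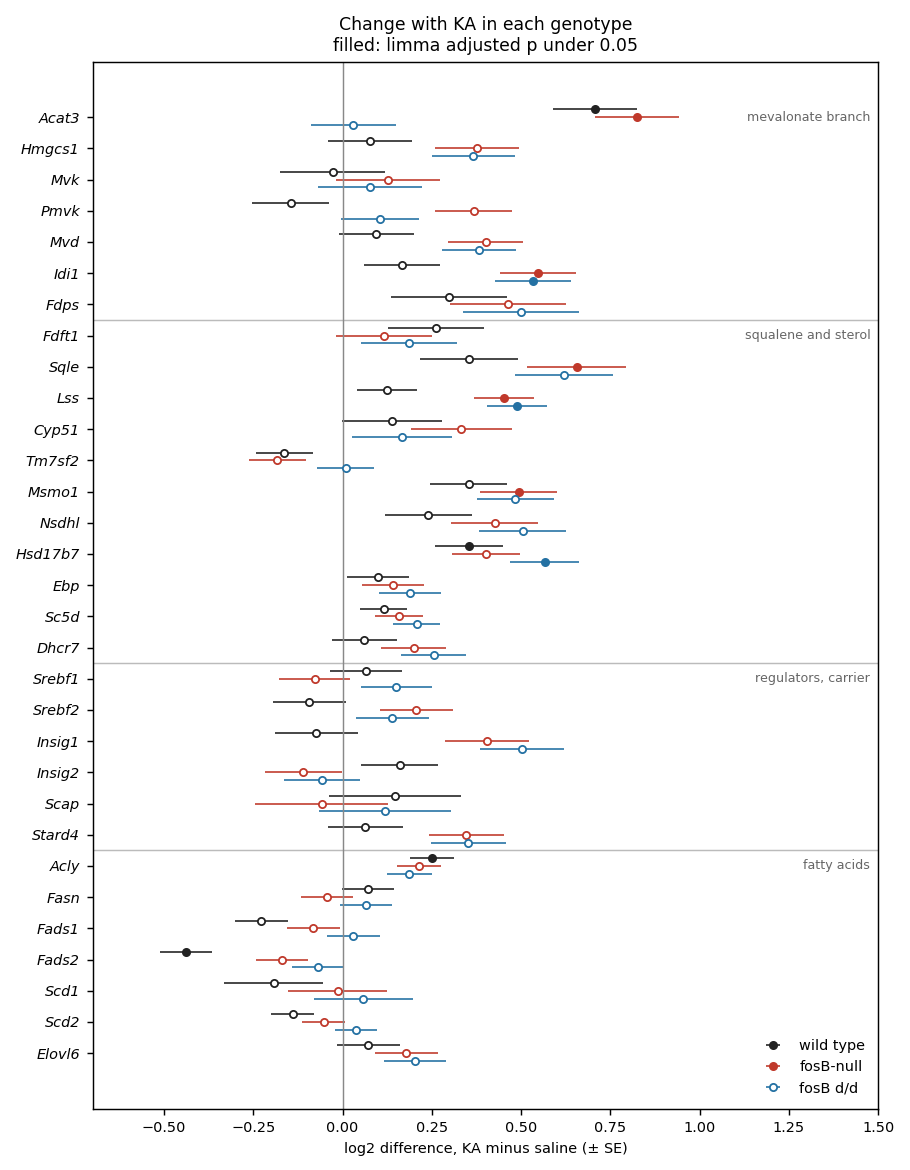
Log2 difference between KA and saline (horizontal axis, ± SE, n = 3 arrays per group) for each of the 31 members (vertical axis, grouped by role) in wild type (black), fosB-null (red) and fosB d/d (blue). Filled points passed limma's adjusted p of 0.05; mevalonate and sterol enzymes lie mostly to the right of 0, by up to 0.82 for Acat3 in fosB-null, and Fads2 in wild type lies lowest at -0.44.

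Among the mevalonate enzymes, Idi1, which isomerises isopentenyl diphosphate, rose with KA in both mutants. Its log2 signal was 9.37, 9.26 and 9.25 in fosB-null saline (replicates 1 to 3) and 9.78, 9.85 and 9.89 after KA. The fosB d/d arrays were at 9.28, 9.59 and 9.47 in saline and 9.92, 10.07 and 9.96 after KA. No KA array of a mutant overlapped its saline arrays. The difference was 0.55 ± 0.11 (SE) in fosB-null, or 1.46-fold (limma adjusted p = 0.0232), and 0.53 ± 0.11 in fosB d/d, or 1.45-fold (adjusted p = 0.0388). In wild type Idi1 was 9.33, 9.82 and 9.47 in saline and 9.73, 9.62 and 9.76 after KA, which overlap, with a difference of 0.17 ± 0.11 (adjusted p = 0.427). A second Idi1 probe set gave 0.16, 0.67 and 0.49 in wild type, fosB-null and fosB d/d.

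Acat3, an acetyl-CoA acetyltransferase that joins the first acetyl units, had the largest KA differences of any member, in wild type and fosB-null. Its close paralog Acat2 is nearly identical in sequence, and their signals may not be told apart by these probes. In wild type it was 8.47, 8.65 and 8.39 in saline and 9.31, 9.18 and 9.14 after KA, a difference of 0.71 ± 0.12 (1.63-fold, limma adjusted p = 0.00158). In fosB-null the saline arrays were lower, at 7.98, 7.61 and 7.63, and the KA arrays were at 8.52, 8.68 and 8.50, a difference of 0.82 ± 0.12 (1.77-fold, adjusted p = 0.00466). For fosB d/d the saline arrays, at 8.45, 8.29 and 8.15, and the KA arrays, at 8.38, 8.49 and 8.11, overlapped, with a difference of 0.03 ± 0.12. The KA arrays were thus highest in wild type, with no overlap with the mutants. The fosB-null KA arrays, at 8.50 or more, lay just above those of fosB d/d, at 8.49 or less, and that difference did not pass.

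The other 5 mevalonate genes did not pass in any genotype without a block. Hmgcs1, the synthase that makes HMG-CoA, differed by 0.08, 0.38 and 0.37 between KA and saline in wild type, fosB-null and fosB d/d. Mvd, the decarboxylase of the branch, differed by 0.10, 0.40 and 0.38, and Fdps, which makes farnesyl diphosphate, by 0.30, 0.46 and 0.50. Mvk, the kinase of mevalonate, differed by -0.03 to 0.13, and its signal followed the array sets: 9.23 to 9.31 in the 6 replicate 1 arrays and 9.37 to 9.69 in the 12 other young arrays. Pmvk, the kinase after it, differed by -0.15, 0.37 and 0.10.

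Of the 11 squalene and sterol enzymes, 10 were above 0 in wild type, 10 for fosB-null and 11 for fosB d/d. Sqle, squalene epoxidase, an oxygen-dependent and rate-limiting step, rose in fosB-null. It was 9.98, 9.56 and 9.63 in fosB-null saline and 10.52, 10.30 and 10.31 after KA, a difference of 0.66 ± 0.14 (1.58-fold, limma adjusted p = 0.0382). Among fosB d/d arrays it was 9.95, 9.76 and 9.77 in saline and 10.61, 10.48 and 10.24 after KA, a difference of 0.62 ± 0.14 that missed the threshold (adjusted p = 0.0625). In wild type it was 9.94, 9.91 and 9.80 in saline and 10.54, 9.99 and 10.19 after KA, a difference of 0.35 ± 0.14 (adjusted p = 0.149). KA arrays lay above saline arrays in every genotype, by the least margin in wild type.

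Lss, lanosterol synthase, closes the sterol rings and rose in both mutants. It was 9.45, 9.21 and 9.26 in fosB-null saline against 9.76, 9.84 and 9.68 after KA, a difference of 0.45 ± 0.08 (1.37-fold, limma adjusted p = 0.0169). For fosB d/d, 9.35, 9.29 and 9.39 against 9.78, 9.90 and 9.81 gave a difference of 0.49 ± 0.08 (1.40-fold, adjusted p = 0.0219). The wild type values, 9.37, 9.66 and 9.54 in saline and 9.71, 9.65 and 9.59 after KA, overlapped and differed by 0.12 ± 0.08.

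Msmo1, the sterol C4 methyl oxidase, rose in fosB-null. It was 10.72, 10.60 and 10.69 in fosB-null saline and 11.27, 11.12 and 11.09 after KA, a difference of 0.49 ± 0.11 (1.41-fold, limma adjusted p = 0.0464). The fosB d/d arrays, 10.76, 10.72 and 10.63 against 11.30, 11.31 and 10.97, gave 0.48 ± 0.11 (adjusted p = 0.0625). In wild type, 10.71, 10.92 and 10.73 against 11.31, 10.92 and 11.19 gave 0.35 ± 0.11 (adjusted p = 0.0621). The 3 differences are near one another, although 1 of them passed.

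Hsd17b7, a reductase of the same C4 demethylation, rose in wild type and fosB d/d. Its values were 9.97, 10.05 and 9.78 in wild type saline and 10.41, 10.17 and 10.28 after KA, a difference of 0.35 ± 0.10 (1.28-fold, limma adjusted p = 0.0353). In fosB d/d, 9.93, 9.75 and 9.62 against 10.39, 10.36 and 10.24 gave 0.57 ± 0.10 (1.48-fold, adjusted p = 0.0200). In fosB-null, 9.94, 9.81 and 9.76 against 10.17, 10.34 and 10.21 gave 0.40 ± 0.10 (adjusted p = 0.0707). No KA array overlapped a saline array of its genotype. Nsdhl, the dehydrogenase of that complex, differed by 0.24, 0.43 and 0.50 and passed in no genotype without a block.

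The remaining sterol enzymes had smaller differences. Fdft1, squalene synthase, differed by 0.26, 0.12 and 0.19, and its 2 probe sets did not match: the second gave 0.54, -0.02 and 0.42. Cyp51, the lanosterol demethylase, differed by 0.14, 0.33 and 0.17. The last steps, Ebp, Sc5d and Dhcr7, differed by 0.06 to 0.25 in every genotype. Tm7sf2, a sterol reductase, differed by -0.16, -0.18 and 0.01. None of these 6 passed.

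**Figure D2:**
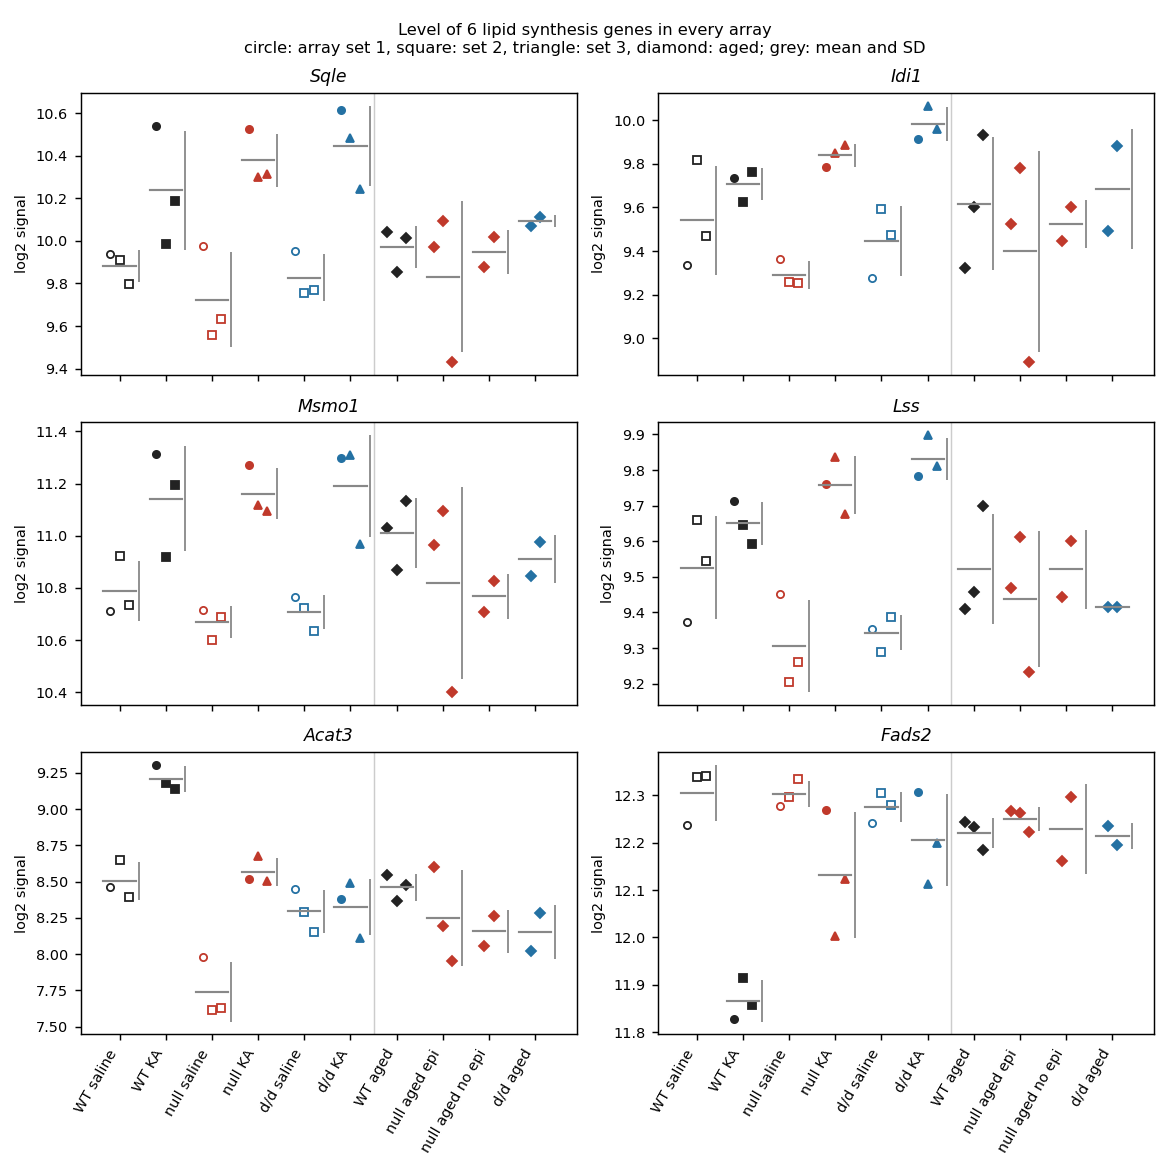
Log2 signal (vertical axis) of Sqle, Idi1, Msmo1, Lss, Acat3 and Fads2 in every array of the 10 groups (horizontal axis), with the group mean and SD in grey. Symbols give the array set: circles for replicate 1 of the young groups, squares and triangles for the other young arrays, diamonds for aged mice. Sqle after KA lies between 9.99 and 10.61, and Fads2 in wild type KA lies between 11.83 and 11.91, under all other arrays drawn.

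None of the 6 regulators and carriers passed in any genotype without a block. Insig1, which retains the SREBP complex and is itself an SREBP target, was 10.71, 10.49 and 10.67 in fosB-null saline and 11.17, 10.99 and 10.93 after KA, a difference of 0.41 ± 0.12 (limma adjusted p = 0.146). Values in fosB d/d were 10.80, 10.72 and 10.58 against 11.10, 11.18 and 11.33, a difference of 0.50 ± 0.12 (adjusted p = 0.0716). With replicate number as a block Insig1 passed there (adjusted p = 0.0484). In wild type the difference was -0.07 ± 0.12. Stard4, a carrier of sterol between membranes, differed by 0.06, 0.35 and 0.35. Srebf2, the SREBP of the sterol pathway, differed by -0.09, 0.21 and 0.14, and Srebf1, that of fatty acids, by 0.07, -0.08 and 0.15. Insig2 differed by 0.16, -0.11 and -0.06. Scap, the escort of SREBP, differed by -0.06 to 0.15, with 10.74 to 10.86 in the replicate 1 arrays and 11.10 to 11.35 in the 12 other young arrays.

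The fatty acid enzymes split. Acly, which makes cytosolic acetyl-CoA from citrate and so feeds both pathways, was 10.20, 10.30 and 10.28 in wild type saline and 10.59, 10.42 and 10.53 after KA, and rose by 0.25 ± 0.06 (1.19-fold, limma adjusted p = 0.0224). Its differences in the mutants, 0.21 ± 0.06 for fosB-null and 0.19 ± 0.06 for fosB d/d, were close to that and did not pass (adjusted p = 0.148 and 0.220).

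Fads2, the desaturase that starts the synthesis of long polyunsaturated fatty acids, fell in wild type. Its signals were 12.24, 12.34 and 12.34 in wild type saline and 11.83, 11.91 and 11.86 after KA. The KA arrays lay below all saline arrays, a difference of -0.44 ± 0.07 (0.738-fold, limma adjusted p = 0.00151). In fosB-null, 12.278, 12.297 and 12.333 against 12.270, 12.004 and 12.123 gave -0.17 ± 0.07 (adjusted p = 0.349), and in fosB d/d, 12.24, 12.31 and 12.28 against 12.31, 12.11 and 12.20 gave -0.07 ± 0.07. In both mutants the replicate 1 arrays showed the least change.

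The other desaturases in wild type were also at negative values without passing. Fads1, the next desaturase of that chain, differed by -0.23 ± 0.07 (limma adjusted p = 0.0797), and Scd2 and Scd1, which make monounsaturated fatty acids, by -0.14 ± 0.06 and -0.19 ± 0.14. With array set as a block all 3 passed (limma adjusted p = 0.00586, 0.0456 and 0.0143). In the mutants these 3 differed by -0.08 to 0.06. Fasn, fatty acid synthase, differed by 0.07, -0.04 and 0.07, and Elovl6, which lengthens its product, by 0.07, 0.18 and 0.20.

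Array sets mattered to the size of the KA difference. In the replicate 1 arrays, 1 KA array against 1 saline array per genotype and so with no test, the median difference over the 18 mevalonate and sterol genes was 0.31 in wild type, 0.32 for fosB-null and 0.32 for fosB d/d, with 16, 16 and 17 genes above 0. The wild type value rests on the saline array that stood apart in Xist. In replicates 2 and 3 it was 0.08, 0.44 and 0.31, with 12, 17 and 17 above 0. Sqle differed by 0.60, 0.55 and 0.66 in replicate 1 and by 0.23, 0.71 and 0.60 in replicates 2 and 3. Idi1 differed by 0.40, 0.42 and 0.64, then by 0.05, 0.61 and 0.48. The 3 medians were thus near one another in the arrays of 1 set, and that of wild type was lower than the mutants in the others, where the mutant KA arrays are set 3. In replicates 2 and 3 with saline, all of set 2, fosB-null and fosB d/d had medians of -0.26 and -0.12 against wild type. After KA these were 0.05 and 0.09. Of the 18 genes, 0 and 1 were above 0 with saline, and 12 and 14 after KA. For the mutants, array set and KA cannot be told apart in replicates 2 and 3, and the difference between sets was not tested.

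Acat3 and Fads2 kept their pattern in both kinds of array. Acat3 differed by 0.84, 0.54 and -0.07 in replicate 1 and by 0.64, 0.97 and 0.08 in replicates 2 and 3, low in fosB d/d each time. Fads2 differed by -0.41, -0.01 and 0.06 in replicate 1 and by -0.45, -0.25 and -0.14 in replicates 2 and 3, lowest in wild type each time.

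**Figure D3:**
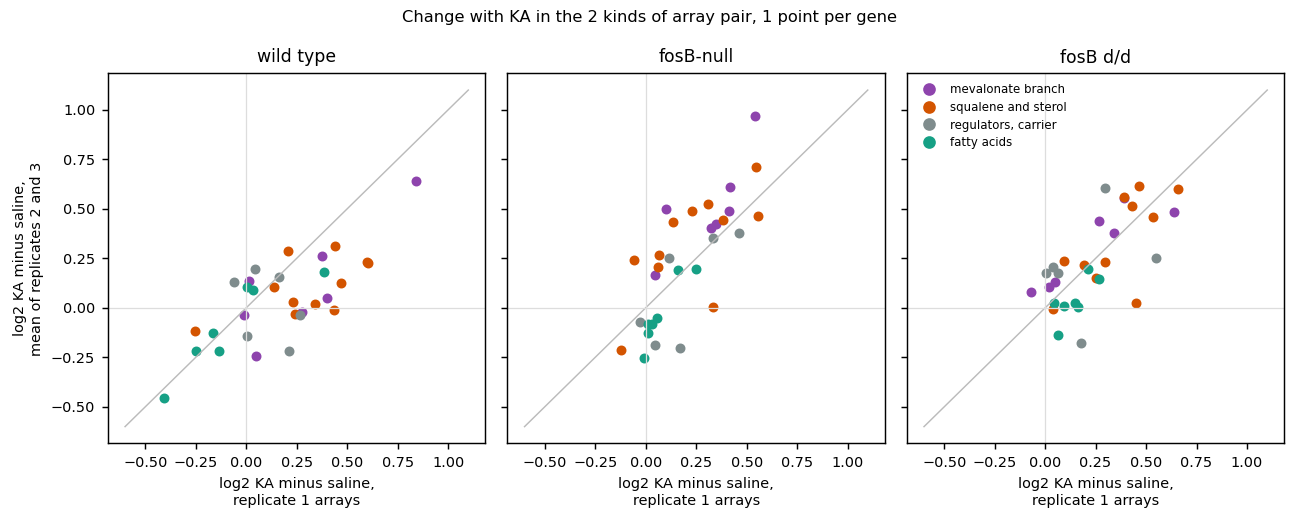
Log2 difference between KA and saline in the replicate 1 arrays (horizontal axis) against the mean of replicates 2 and 3 (vertical axis), 1 point per member, coloured by role, in panels for wild type, fosB-null and fosB d/d. The grey diagonal marks equal values: most mevalonate and sterol genes of wild type lie below it, with medians of 0.31 and 0.08, and those of fosB-null mostly above it, with 0.32 and 0.44.

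KA was also averaged over the 3 genotypes with array set as a block, a fit chosen after the data were seen. The fit takes the KA difference as equal in every genotype. Set 3 holds no saline array, so the estimate weighs wild type more than either mutant and is not an even average. In this fit 13 members rose and 1 fell, where 11.9% of all genes passed, 5.39% higher and 6.55% lower. The risers were 5 of 7 mevalonate genes (Acat3, Hmgcs1, Mvd, Idi1 and Fdps), 7 of 11 sterol genes (Fdft1, Sqle, Lss, Msmo1, Nsdhl, Hsd17b7 and Sc5d), 0 of 6 regulators and Acly; Fads2 fell by 0.23 on the log2 scale. Sqle had a difference of 0.47 ± 0.07 (limma adjusted p = 0.000876), Msmo1 0.44 ± 0.07 (adjusted p = 0.00203) and Fdps 0.34 ± 0.04 (adjusted p = 0.000306). With no block these 3 differences were 0.54, 0.44 and 0.42. In the 6 replicate 1 arrays alone, with the genotypes as replicates, limma called 0 members and 0 of all genes. At an unadjusted p under 0.05 it gave 14 members, all higher, or 45.2%, against 16.7% of all genes.

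With saline, few members passed between genotypes in the fit without a block. In fosB-null against wild type 1 member, Acat3, was lower, at -0.76 ± 0.12 (0.590-fold, limma adjusted p = 0.0166), where 0.0802% of all genes passed and 0.0652% were lower. That call was lost without wild type replicate 2 or fosB-null replicate 2 or 3. The next by p were Insig1, at 10.73, 11.15 and 11.02 in wild type and 10.71, 10.49 and 10.67 in fosB-null, a difference of -0.34 ± 0.12, and Mvd, at 8.91, 9.17 and 9.04 and 8.70, 8.81 and 8.74, a difference of -0.29 ± 0.10. Lss differed by -0.22 ± 0.08. Of the 31 members 4 were above 0, with a median of -0.10 against -0.01 for all genes. These differences lay in part of the arrays: over the 18 mevalonate and sterol genes the median was -0.003 in replicate 1, with 9 above 0, and -0.26 in replicates 2 and 3, with 0 above 0. Replicate 2 of fosB-null saline was the lowest of the 18 young arrays for 10 of the 31 members. How often it was the lowest over all genes was not counted.

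Between fosB d/d and wild type with saline, limma called 0 members and gave 2 at an unadjusted p under 0.05, as for 1.82% of all genes, with 0.01% of all genes called. Insig1, at 10.80, 10.72 and 10.58 in fosB d/d, differed by -0.27 ± 0.12 and Lss by -0.18 ± 0.08. Stard4, at 8.36, 8.60 and 8.43 in wild type and 8.04, 8.49 and 8.25 in fosB d/d, differed by -0.20 ± 0.10, and Hsd17b7 by -0.17 ± 0.10. All 4 overlapped between the groups. The median of the 31 members was -0.06, with 5 above 0. Between the mutants with saline, 0 members passed, 2 had an unadjusted p under 0.05, as did 7.49% of all genes, and 0.015% of all genes were called. Acat3 was lower in fosB-null there, a difference of -0.55 ± 0.12 (limma adjusted p = 0.121), Pmvk, at 8.51, 8.09 and 8.16 against 8.41, 8.55 and 8.54, by -0.25 ± 0.11, and Srebf2, at 11.14, 11.22 and 11.29 against 11.28, 11.49 and 11.39, by -0.17 ± 0.10. Cyp51, at 9.46, 8.89 and 9.08 against 9.32, 9.41 and 9.38, differed by -0.23 ± 0.14. With replicate number as a block, Acat3 passed.

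After KA, Acat3 and Fads2 parted the mutants from wild type. Acat3 was lower in fosB-null by -0.64 ± 0.12 (0.641-fold, limma adjusted p = 0.0189), the 1 member called, where 0.792% of all genes passed and 0.507% were lower; the call was lost without wild type replicate 1 or 2 or fosB-null replicate 3. With replicate number as a block, Fdft1 was called as well. In fosB d/d, Acat3 was lower by -0.88 ± 0.12 (0.543-fold, adjusted p = 0.00236) and Fads2 higher by 0.34 ± 0.07 (1.27-fold, adjusted p = 0.0448), where 0.687% of all genes passed, 0.211% higher and 0.476% lower. The Fads2 call was lost without any 1 wild type array or without fosB d/d replicate 1 or 3, and that of Acat3 was kept. Fads2 in fosB-null was 0.27 ± 0.07 above wild type (adjusted p = 0.102). Between the mutants after KA, limma called 0 members, gave 0 at an unadjusted p under 0.05, where 1.73% of all genes had one, and called 0% of all genes; 4 members were higher in fosB-null. Both mutant groups are compared here with the same wild type arrays.

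The KA response itself was not shown to differ between genotypes for any member. The interaction of fosB-null minus wild type had 0 members past limma's threshold, 5 at an unadjusted p under 0.05 (13.7% of all genes had one) and 0.176% of all genes called. Pmvk had the largest value there, 0.51 ± 0.15 (adjusted p = 0.164), then Insig1 with 0.48 ± 0.17 (adjusted p = 0.220). That of fosB d/d minus wild type had 0 members called, 6 at an unadjusted p under 0.05 (7.95% of all genes had one) and 0.0301% of all genes called. Acat3 had -0.68 ± 0.17 (adjusted p = 0.219), Insig1 0.58 ± 0.17 (adjusted p = 0.312) and Fads2 0.37 ± 0.10 (adjusted p = 0.292). The 95% intervals, -1.03 to -0.32 for Acat3 and 0.15 to 0.59 for Fads2 in fosB d/d, leave room for sizeable differences. With array set as a block, Fads2 was called in both interactions. Over all members the median interaction was 0.15 for fosB-null and 0.19 for fosB d/d, with 24 and 25 of 31 above 0, against -0.01 for all genes in each. It was 0.04 and 0.06 in the replicate 1 arrays, with 17 and 25 above 0, and 0.21 and 0.23 in replicates 2 and 3, with 25 and 25 above 0.

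**Figure D4:**
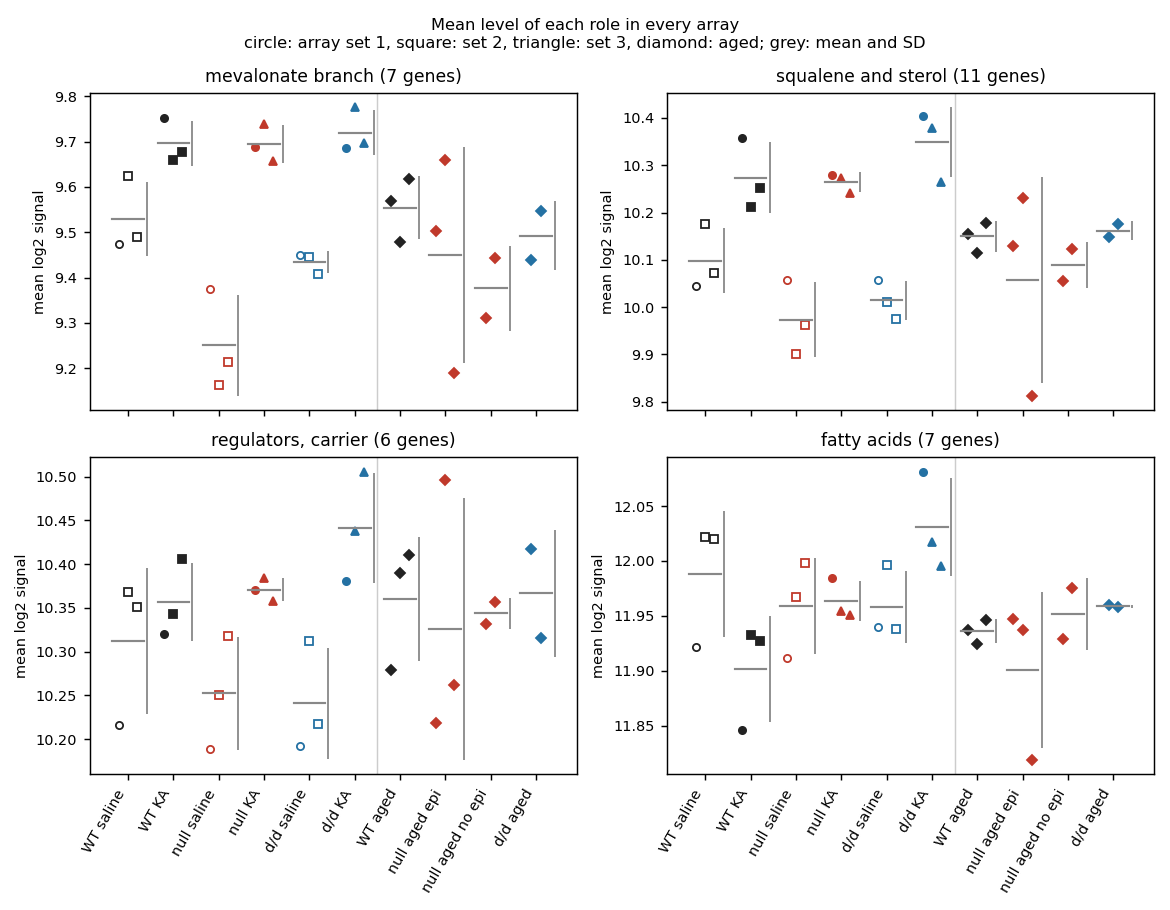
Mean log2 signal (vertical axis) over the genes of each role in every array of the 10 groups (horizontal axis), in 4 panels, with group mean and SD in grey and symbols for the array set. The mean of the 11 sterol genes is 10.04 to 10.18 in wild type saline and 10.21 to 10.36 after KA, and falls to 9.81 in 1 aged fosB-null array with epilepsy.

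Neighbouring parts of lipid biology had few calls. Among 8 measured genes of the LXR response and cholesterol efflux, 8 of lipoprotein uptake and lysosomal cholesterol and 5 of SREBP processing, 0 passed for KA in any genotype by limma, with 1, 2 and 0 at an unadjusted p under 0.05 in wild type, where 20.3% of all genes had one. Of 6 oxysterol and turnover genes, Ch25h, which makes the oxysterol 25-hydroxycholesterol, rose in wild type by 0.83 ± 0.18 (limma adjusted p = 0.00855) and Osbpl1a, an oxysterol binding protein, fell by 0.30 on the log2 scale (adjusted p = 0.0384). Among 14 further fatty acid genes, Elovl2, an elongase of the same polyunsaturated chain as Fads2, fell in wild type by 0.55 (adjusted p = 0.0243). None of these 5 lists had a call in either mutant, where 1 oxysterol gene each and 4 and 2 of the further fatty acid genes had an unadjusted p under 0.05, as did 12.5% and 12.2% of all genes.

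Markers of glia and other cells differed after KA beside these genes. Of 9 astrocyte markers in wild type 4 fell, Gja1 by 0.98, Slc4a4 by 0.47, Glul by 0.33 and Aldoc by 0.29 on the log2 scale, and 1, Aqp4, rose by 0.77. The mean of the 9 ran from 11.64 to 11.73 in wild type saline and from 11.38 to 11.53 after KA, while it was 11.63 to 11.69 and 11.56 to 11.68 in fosB-null, and for fosB d/d 11.63 to 11.72 and 11.53 to 11.64. After KA, Gja1 and Slc4a4 were higher than wild type, by 0.48 and 0.45 for fosB-null and by 0.53 and 0.43 for fosB d/d. The others of these 9 markers were not called between the mutants and wild type. Of 8 reactive astrocyte markers 7 rose in wild type, 6 for fosB-null and 4 for fosB d/d. Their mean was 8.94 to 9.12 in wild type saline and 10.65 to 11.01 after KA. In the mutants after KA it was 10.13 to 10.42 for fosB-null and 9.76 to 10.46 for fosB d/d. Against wild type after KA, Timp1, Cd44 and Serpina3n were called lower in fosB d/d, at -1.89, -1.44 and -0.79 on the log2 scale. No reactive marker was called there for fosB-null. Of 11 oligodendrocyte markers, 3 fell in wild type, 1 for fosB-null and 0 for fosB d/d. Their mean was 11.05 to 11.26 in wild type saline and 10.71 to 10.93 after KA. Only Aspa of these markers was called between a mutant and wild type after KA, higher in fosB-null by 0.52. Of 8 microglial markers, 2 rose in wild type, C1qa and C1qb, and 1, P2ry12, fell in fosB-null by 0.59. Of 5 oligodendrocyte precursor markers, Cspg4 and Gpr17 fell in wild type by 0.47 and 0.55. Of 10 neuron markers in wild type, Gad2 rose by 0.34 and Prox1 fell by 0.23, and of 6 endothelial markers Kdr fell by 0.37. None of 7 choroid plexus markers passed, but all 7 were above 0 in wild type, with a median of 0.81, and in fosB-null, with 0.43. Their mean varied widely between arrays of a group, from 8.69 to 10.93 in wild type saline against 9.97 to 10.97 after KA, and from 8.53 to 10.92 in fosB-null saline, while in fosB d/d saline it was 10.67 to 11.05. In whole hippocampus, fewer cells of a type and less RNA per cell cannot be told apart, and the part of these markers in the results above was not tested.

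In aged mice no member passed the test between groups. For epileptic fosB-null, non-epileptic fosB-null and fosB d/d, each against wild type, and for epileptic against non-epileptic fosB-null, limma called 0 members and gave 0 at an unadjusted p under 0.05, with 0%, 0.0351%, 0.01% and 0% of all genes called and 3.37%, 11.2%, 10.3% and 9.77% at that unadjusted p. Medians over the members were -0.07, -0.06, -0.01 and 0.00. For Sqle, fosB-null with epilepsy differed from wild type by -0.14, with a 95% interval from -0.48 to 0.20. With 2 or 3 arrays per group, smaller differences could not be shown.

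One aged array stood low. In replicate 3 of fosB-null with epilepsy, 21 of 31 members were the lowest of the 10 aged arrays. How often each array was lowest or highest over all genes was not counted, so these counts may not be particular to the members. Hmgcs1 was 10.83 there and 11.18 to 11.60 in the 9 others, and Sqle was 9.43 against 9.86 to 10.11. Idi1 was 8.89 against 9.32 to 9.93, and Msmo1 10.40 against 10.71 to 11.13. The other 2 arrays of that group lay within or above the remaining aged arrays for these 4 genes, and the array labelled replicate 2, whose Fosb signal goes against its label, was the highest of the 10 for 11 members. Without replicate 3, the median over the members was 0.02 for epileptic fosB-null against wild type and 0.07 against non-epileptic fosB-null, and Sqle differed from wild type by 0.06. Without the array labelled replicate 2, the medians were -0.14 and -0.09, and Sqle differed by -0.27. The sign of the first median and of Sqle thus turned with 1 array, replicate 3, and 0 members passed either way.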

How the data were processed

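The deposited values are log2 signals for 35557 probe sets on 28 arrays, made by the authors from 100 ng RNA per array. Per the submitters' processing notes this was done in Affymetrix Expression Console, and its version and algorithm are not stated there. The 28 columns were grouped by title and treatment label. Values were quantile-normalized over all arrays and probe sets in limma 3.58.1 (R 4.3.3), a choice made because array medians differed by set. Of the probe sets, 21789 carry 1 symbol, 1621 several and 12147 none; where a gene had more than 1, as 999 did, the brightest was kept. Names matched RefSeq (GRCm38.p6) by Entrez identifier for 21698 probe sets.

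Group contrasts were fitted with lmFit and eBayes, the 18 young arrays in 1 fit and the 10 aged arrays in another, with no block, and p was adjusted after Benjamini and Hochberg over 19938 genes in each of 15 comparisons. The procedure was tested on simulated data. For the group contrasts these held no array sets, so that test cannot show how set 3 bears on the KA calls in the mutants. Values in every array are given for members called in a comparison, or for the 4 of smallest p where under 4 were called for KA or between saline groups; replicate 1 to 3 only name arrays. Members, lists, tests and array sets were chosen with earlier results of these data known. Array number limits the precision, and p-values set a difference between groups against the spread of arrays within groups. With no block, that spread includes any shift between array sets inside a young group.

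To see whether replicate numbers pair arrays, each array's deviation from its group mean was correlated with that of its namesake; all pairs were above 0.1 for KA in fosB-null (0.229 to 0.376) and fosB d/d (0.264 to 0.356), saline fosB d/d against wild type (0.395 to 0.773), saline fosB-null against fosB d/d (0.201 to 0.331), fosB-null against wild type KA (0.351 to 0.476) and aged epileptic fosB-null against wild type (0.212 to 0.5). The labels pair no arrays, replicate 1 is array set 1 in every young group, and the part of the sets in these correlations was not tested. Alternatives were the deposited scale, array medians subtracted, replicate or array set as a block, 1 set alone and trended robust moderation. Others were a filter on the dimmest 30 percent of genes, averaged probe sets, only the compared groups, and each array left out. The average over genotypes and the fits with no replicate 1 arrays are later additions, chosen after seeing the data. The list of members by role, the related lists and the cell markers were counted without a set test.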

Additional observations from a re-analysis of the deposited data

Results flagged for a closer look

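Against the mean of the saline arrays, Srebf2, the gene of the sterol pathway's SREBP, was lower in each wild type KA array and higher in each fosB-null KA array. It was picked by screening all 31 members for KA changes of opposite sign between 2 genotypes, so the opposite signs are no test. KA and saline arrays overlapped in both genotypes. Wild type saline replicate 1, at 11.217, lay below all wild type KA arrays, at 11.220 to 11.351. The lowest fosB-null KA array, 11.26, lay below the highest saline array, 11.29. Each wild type KA array lay below the mean of the wild type saline arrays, by -0.18 to -0.04, and each fosB-null KA array above the mean of its own saline arrays, by 0.04 to 0.30, which makes a difference of 0.299 between the 2 changes. In the interaction fit that difference was 0.30 ± 0.14 (limma adjusted p = 0.379), so it did not pass, and neither change passed on its own. Replicate 1 alone gave 0.004 in wild type and 0.11 in fosB-null, and replicates 2 and 3 gave -0.14 and 0.25, so the wild type difference lay in replicates 2 and 3.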

How the results depend on the processing

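Of 7223 gene results under an alternative, 7000 kept their side of the threshold, 107 gained it and 116 lost it. Most of the 7000 were not called either way. None that was called in either fit changed sign, while sign changes of genes not called, such as aged Sqle, were not counted. Only a result called at first could be lost, as Msmo1 for KA in fosB-null was in 10 of 15 alternatives. Acat3 and Fads2 kept their calls for KA in wild type in all 16 alternatives. On the deposited scale 2, 0 and 0 members were called for KA in wild type, fosB-null and fosB d/d, 0 in fosB-null against wild type saline and 1 in fosB d/d against wild type KA. With array medians subtracted 1 was called for KA in fosB-null, 1 for KA in fosB d/d and 1 in fosB d/d against wild type KA. With only the compared groups fitted, the counts were 2, 0 and 0 for KA, and 0 in fosB-null against wild type saline and in either mutant against wild type KA. With the dimmest genes left out 5 were called for KA in fosB d/d. With the replicate block 11, 10 and 10 were called for KA and 1 between the mutants with saline. There were 2 for fosB-null and 5 for fosB d/d against wild type KA, and no other count moved past 1.5 times. Namesake arrays were not all correlated above 0.1 for KA in wild type or for fosB d/d against wild type KA. With the array set block the counts were 12, 0 and 0 for KA, 1 between the mutants with saline, 2 for fosB-null and 4 for fosB d/d against wild type KA, and 1 in each interaction. Within set 2 they were 7 for KA in wild type (3 higher and 4 lower, without Hsd17b7 and Acly), 4 in fosB-null against wild type saline and 2 between the mutants with saline. In these comparisons 17.7%, 5.24% and 2.28% of all genes were called. Without any replicate 1 array the member counts were 7, 16 and 9 for KA and 5 and 2 in those saline comparisons. Against wild type KA they were 4 for fosB-null and 6 for fosB d/d, and 8 in the fosB-null interaction. Many of all genes were called in these fits too: 17.4%, 13% and 7.66% for KA and 5.31% and 2.56% with saline. Against wild type KA the shares were 11.9% and 7.31%, and 15.5% in that interaction. The KA average called 16 members with no block, 14 with the array set block and 0 in the replicate 1 arrays alone. Leaving out each replicate gave 2 to 5, 1 to 5 and 0 to 4 members for KA. Of all genes 3.57% to 6.82%, 0.11% to 1.95% and 0.0201% to 0.717% passed for KA in these fits. The member counts were 0 to 1 in fosB-null against wild type with saline and with KA, and 1 to 2 in fosB d/d against wild type KA. They were 0 to 1 in the fosB-null interaction and 0 in the others. Why the counts moved was not tested, apart from the fewer arrays behind some fits.

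Counts over all genes moved more. For KA in wild type 1375 genes were called, 511 on the deposited scale, 503 with only these groups, 2880 with the replicate block and 3504 with the array set block. For KA in fosB-null the counts were 152, 15, 16, 476 and 12, and in fosB d/d 92, 6, 0, 416 and 16. For fosB-null against wild type saline they were 16, 1, 0, 66 and 239, and for fosB d/d against wild type KA 137, 394, 0, 526 and 452. In fosB-null against wild type KA 158 were called, 3 with only these groups, 716 with the replicate block and 383 with the array set block. The fosB-null interaction called 35, then 8, 12, 394 and 224, and that of fosB d/d 6, then 3, 2, 25 and 165. Of the genes called, 63.2% were higher on the deposited scale against 50.5% for KA in wild type, 46.7% against 61.8% in fosB-null, 0.952% against 36.1% in fosB-null against wild type KA and 0.761% against 30.7% in fosB d/d against wild type KA. The median of all genes there stood at -0.17 for KA in each mutant, and at -0.20 and -0.22 for the mutants against wild type KA. The aged comparisons, with 2 or 3 arrays a group, called 0 to 43 genes of all and 0 members in each setting.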
